A study of Mus musculus with 50 samples.

Results

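RNA of neurons, astrocytes, oligodendrocytes and blood vessels was followed in sorted mouse microglia through 36 marker genes, taken from marker lists for these cell types out of the 48526 genes counted. They comprise 13 neuron, 9 astrocyte, 7 oligodendrocyte and 7 vascular genes. Microglia were sorted by FACS from brains of mice lacking the histone deacetylases HDAC1 and HDAC2 and of controls, and 50 libraries in 14 groups were sequenced, with 11050277 to 29651179 counted reads each (median 18052690). Every mouse carried loxP-flanked Hdac1 and Hdac2. Constitutive KO mice also carried Cx3cr1-Cre, and their microglia were taken at birth (P0, 3 libraries), at 2 weeks (2) and at 6 weeks (3), against Cre-negative controls with 4 libraries at each age, none of them given tamoxifen. Inducible KO mice carried Cx3cr1-CreERT2 and were sampled at embryonic day 16 (E16, 3 libraries), P0 (4), 2 weeks (4) and 6 weeks (4), against Cre-negative controls with 4, 3, 4 and 4 libraries. The inducible KO mice and their controls were both exposed to 3 mg tamoxifen through the mother at embryonic day 13. Because no control carried Cre, deletion and the presence of the Cre allele cannot be told apart. E16 and P0 animals were decapitated whereas 2- and 6-week animals were perfused through the heart, so age and perfusion cannot be told apart either.

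HDAC1 and HDAC2 are enzymes that remove acetyl groups from histones as part of repressor complexes. Such complexes are recruited by REST, a protein that binds the RE1 element and keeps neuronal genes silent outside neurons. Microglia are the macrophages of the brain parenchyma and arise in the yolk sac, whereas neurons, astrocytes and oligodendrocytes come from the neural tube. A sorted microglial library can hold RNA of those cells when other cells pass the gate, when free RNA or cell fragments adhere to microglia or have been engulfed by them, or when microglia transcribe the genes themselves. In these bulk libraries the sources were not separated, and fewer cells of a type cannot be told apart from less RNA per cell.

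The sorted cell type was checked with Cx3cr1 and P2ry12, receptors that mark microglia; Cx3cr1 is also the gene that drives Cre in both models. Cx3cr1 stood at 2404 to 8448 CPM (the library's read counts scaled to a total of 1000000) in every control library, and P2ry12 at 1796 to 14008 CPM. In the constitutive KO libraries at P0 the values were far lower, with 359, 64.1 and 79.1 CPM for Cx3cr1, against 2814, 3769, 3607 and 3506 CPM in the controls. Across 18 microglial genes the summed CPM was 9531, 4488 and 5597 in these KO libraries, against 45071, 38958, 45937 and 44258 in the controls. All 18 were lower by the edgeR test described below, including Tmem119. The pan-leukocyte gene Ptprc reached 342, 307 and 428 CPM in KO libraries, against 452, 406, 490.1 and 492 CPM in controls. The label microglia is thus met by the controls at every age, and met poorly by the constitutive KO libraries at P0.

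The targeted genes did not fall uniformly with the labels, and the labels give no exons for the deletion, so a gene count need not fall with it. Hdac2 was lower in the inducible KO at P0, 2 weeks and 6 weeks (log2 fold changes -1.19 ± 0.16, -1.42 ± 0.10 and -1.28 ± 0.12, ± standard error). In the libraries labelled constitutive KO at P0, Hdac2 was at 191, 124 and 137 CPM, against 164, 129, 126 and 156 CPM in the controls, and no change passed the test. Hdac1 was at 35.7 CPM in the library labelled constitutive KO 68 and at 92.2 CPM in that labelled constitutive KO 380 (6 weeks), above all of their controls, which lay at 11.4 to 13.6 and 13.4 to 16.6 CPM. The library labelled inducible KO 1 at E16 held 316 CPM of Hdac2, against 133 to 165 CPM in its controls. KO is used below as the label gives it.

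In control microglia the neural and vascular RNA was mostly a feature of the fetal and newborn brain. The 36 genes together made up 0.0941 to 0.238% of all counts at E16 in the inducible controls, 0.12 to 0.203% at P0 in the inducible and 0.238 to 0.459% at P0 in the constitutive controls. At 2 and 6 weeks the share lay between 0.0356 and 0.0659% in all 4 control groups. Neuronal genes fell furthest: their summed level in the constitutive controls was 1218, 2560.1, 1239.5 and 1419 CPM at P0, 4.68, 5.07, 6.65 and 6.66 CPM at 2 weeks, and 4.94, 5.07, 4.24 and 6.55 CPM at 6 weeks. No library of an older control came near the neuronal level of any P0 library. The inducible controls had neuronal sums of 586, 849 and 914 CPM at P0 and 2.75 to 9.41 CPM at 2 weeks.

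**Figure D1:**
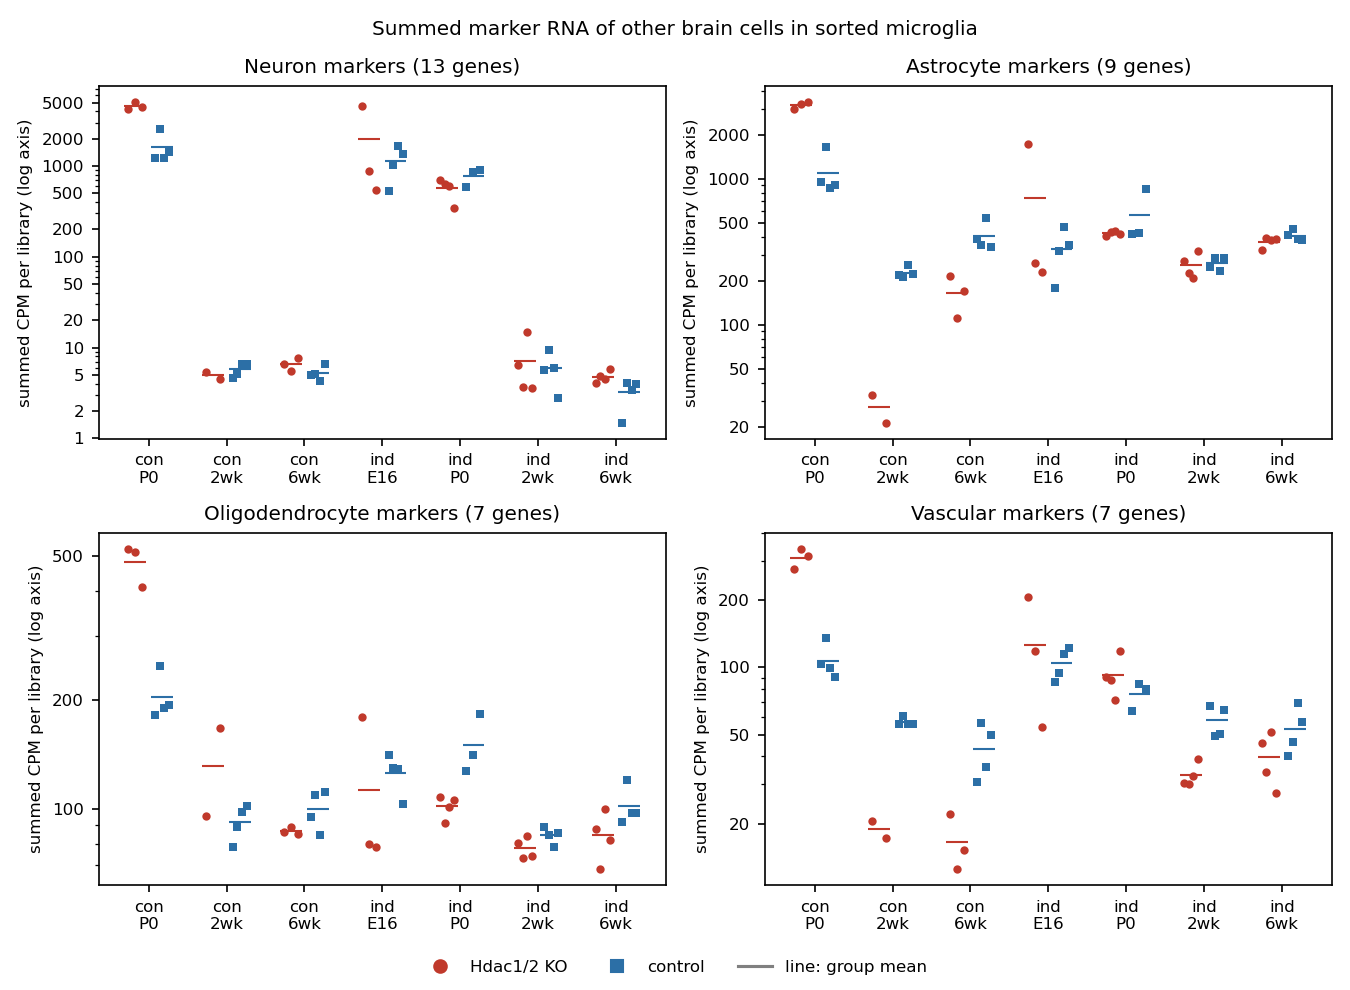
Summed CPM of the neuron, astrocyte, oligodendrocyte and vascular genes in every library (points, log axis) by group, with KO left of control at each age and group means as horizontal lines. The constitutive KO libraries at P0 lie above their controls in all 4 classes, and the neuronal sums of all groups drop to between 1.49 and 14.7 CPM at 2 and 6 weeks.

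Fold changes were tested with edgeR's quasi-likelihood test on the counts, scaled by TMM, with Benjamini-Hochberg adjustment over all genes tested and a threshold of 0.05. In the constitutive controls at 2 weeks against P0, 31 of the 36 genes were lower and 1 was higher, where 36.6% of all 16346 genes tested were lower and 26.7% were higher. The median log2 change of the 36 genes was -6.05, against -0.07 for all genes. In the inducible controls 29 of 35 tested genes were lower and 2 higher (32.7% and 21.9% of 16321 genes), with a median of -5.51 against -0.06. The 13 neuronal genes were all lower in both sets. With 2- and 6-week controls alone, the filter on low counts kept 16 of the 36 constitutive and 15 inducible values. Of these, 3 and 2 were neuronal. Most other genes thus entered here through P0, where they are high, so a lower call was largely set in advance for them. The counts called are therefore a description and cannot be weighed against the shares of all genes. When libraries were scaled to their totals in place of TMM, the median over all genes moved by -0.29 in the constitutive and -0.22 in the inducible controls.

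Dpysl3, a collapsin response mediator protein of growing axons and the neuronal gene with the highest mean CPM over all 50 libraries, shows the size of the drop. It was at 0.305, 0.0576, 0.753 and 0.894 CPM in 2-week constitutive controls, against 196, 397, 205 and 219 CPM at P0 (log2 fold change -8.77 ± 0.42, edgeR adjusted p = 3.9e-08). Fabp7, a fatty acid binding protein of radial glia and the highest of the 36 at P0 per length, was at 1.07, 1.67, 2.51 and 2.52 CPM at 2 weeks, against 536, 974, 488 and 480.1 CPM at P0 (-8.05 ± 0.34, edgeR adjusted p = 1.2e-08). The ages did not overlap for either gene. Early oligodendrocyte lineage genes and most vascular genes followed the same course, with Olig1 at -6.45 ± 0.40 and the endothelial tight junction gene Cldn5 at -7.71 ± 0.50 (-8.53 without 2-week control library 81). In the inducible controls at 2 weeks Cldn5, the basement membrane gene Nid1 and Olig2 had no counts in any of the 4 libraries, which allows at most 3 counts over the group and puts them at least 225.5-, 267.4- and 102-fold lower than at P0. Cldn5 and Nid1 lay between 5.17 and 12.8 CPM in the 3 P0 control libraries.

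A few of the 36 genes did not follow this course. Slc1a3, the glial glutamate transporter GLAST, was at 211, 206, 245 and 214 CPM in 2-week constitutive controls, against 223, 376.5, 198 and 230 CPM at P0. The log2 change was 0.07 ± 0.16 (edgeR adjusted p = 0.70) and its sign changes with the scaling, to -0.23 with library totals. In the inducible controls Slc1a3 was higher at 2 weeks, at 246, 280, 224 and 278 CPM, against 86.3, 96.6 and 230 CPM at P0 (1.12 ± 0.32, edgeR adjusted p = 0.018). That call was lost with library totals, with no filter on low counts and without P0 control library 55, and without P0 control library 56, which holds the 230 CPM, the change was 1.72. At 6 weeks Slc1a3 was higher again than at 2 weeks in both sets, at 378, 346, 530 and 332 CPM in the constitutive controls (0.82 ± 0.14, edgeR adjusted p = 0.00099) and at 405, 446, 384 and 370.0 CPM in the inducible controls (0.57 ± 0.10, edgeR adjusted p = 0.00063). Both calls were lost in a fit of all 50 libraries together, where the changes were 0.85 and 0.58. It was the highest of the 36 genes per length in all 4 groups of older controls, at 25.7 ± 2.08 CPM per kb (SD, n = 4) in the 2-week constitutive controls.

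Pecam1, an adhesion molecule of endothelium that leukocytes and platelets also carry, was higher after birth. It was at 51.6, 56.2, 51.5 and 50.9 CPM in 2-week constitutive controls, against 16.3, 19.3, 26.6 and 19.7 CPM at P0 (1.65 ± 0.15, edgeR adjusted p = 3.8e-07). In the inducible controls it was at 62.6, 45.8, 45.9 and 60.4 CPM, against 24.9, 26.8 and 40.2 CPM at P0 (1.03 ± 0.19, edgeR adjusted p = 0.00059). The ages did not overlap in either set.

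The myelin genes Mbp (myelin basic protein), Cnp (a phosphodiesterase of myelinating cells) and Mog (a myelin surface glycoprotein) did not pass the test between P0 and 2 weeks in either set. Cnp was at 53.2 to 67.2 CPM in 2-week constitutive controls, against 57.7 to 72.9 CPM at P0. Mbp was at 24.1 to 33.9 CPM, against 32.0 to 44.5 CPM. The Mbp locus also gives rise to Golli transcripts outside oligodendrocytes, which gene-level counts do not separate, and 4.23% of the exon bases of Cnp lie opposite Dnajc7 (263 CPM on average), whose reads cannot be told apart there without strand information. Cdh5, the VE-cadherin of endothelial junctions, was lower at 2 weeks in the constitutive controls (-1.08 ± 0.28, edgeR adjusted p = 0.0035) and did not pass in the inducible ones (-0.87 ± 0.38, edgeR adjusted p = 0.068). Per length, Slc1a3, Cnp, Pecam1 and Mbp were the 4 highest of the 36 genes in every group of 2- and 6-week controls.

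**Figure D2:**
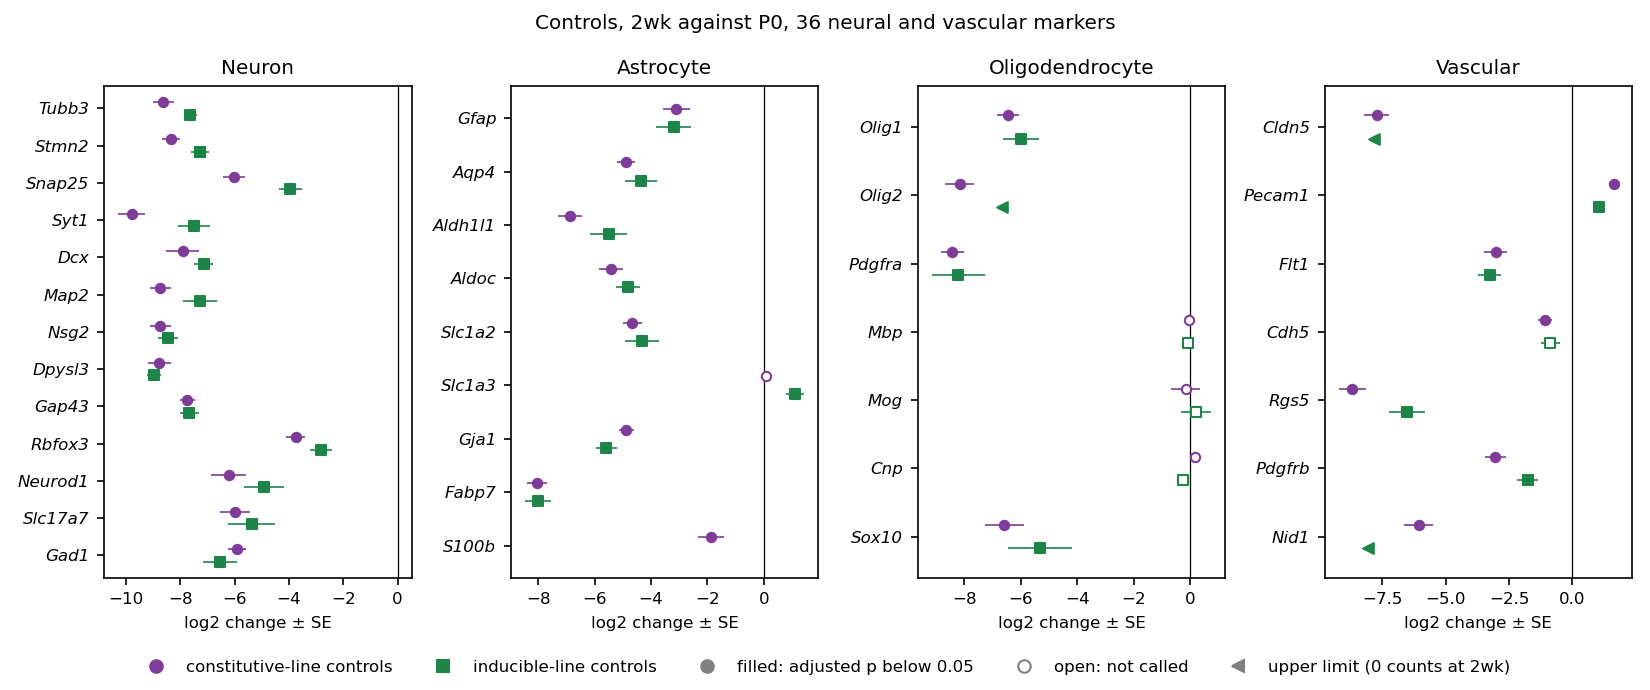
Log2 fold change at 2 weeks against P0 (± standard error) for each of the 36 genes in constitutive and inducible controls; triangles mark upper limits for genes with no counts at 2 weeks. Slc1a3, Pecam1, Mbp, Cnp, Mog and Cdh5 sit apart from the other genes, whose bars lie well below 0.

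Between 2 and 6 weeks few of the genes moved. Besides Slc1a3, the inducible controls showed higher Mbp (0.36 ± 0.11, edgeR adjusted p = 0.033) and lower Cdh5 (-1.49 ± 0.42, edgeR adjusted p = 0.023), where 8.13% of all genes were higher and 8.98% lower. The Mbp call was lost in 6 and the Cdh5 call in 5 of the 8 fits that leave out a library, and the Mbp call also with no filter on low counts and in the fit of all 50 libraries. The constitutive controls showed lower Fabp7 (-1.51 ± 0.49, edgeR adjusted p = 0.045), where 8.8% of all genes were higher and 8.93% lower. Fabp7 lay at 0.195 to 0.999 CPM at 6 weeks, against 1.07 to 2.52 CPM at 2 weeks, and its call was lost in 9 of 13 alternatives. Between E16 and P0 no gene of the 36 passed in the inducible controls, where 0.0464% of all genes were higher at P0 and 0.0116% lower. There 1875 genes had an unadjusted p under 0.05, and DESeq2 called 242 genes higher and 185 lower. The water channel gene Aqp4 was at 7.2, 12.4 and 19.7 CPM at P0, against 1.06, 2.47, 4.35 and 1.93 CPM at E16 (2.43 ± 0.46, edgeR adjusted p = 0.11), without overlap.

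At P0 the constitutive KO libraries held more neural and vascular RNA than their controls in all 4 classes. Of the 36 genes 31 were higher and none lower, where 21.4% of 18411 tested genes were higher and 20.2% lower. The median log2 change was 1.20, against 0.04 for all genes. In 33 genes all 3 KO libraries lay above all 4 controls in CPM. How many of all genes did so was not counted, so the 33 cannot be set against them. CPM values are shares of each library from a fixed amount of RNA, and the choice of scaling matters here. With library totals in place of TMM the median over all genes moved by 0.36. Then 33 of the 36 genes were called higher, with Mbp and Cdh5 added, as were 6427 of all 18411 genes.

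The 13 neuronal genes were all higher. Their sum was 4248, 5062 and 4499 CPM in KO libraries, against 1218, 2560.1, 1239.5 and 1419 CPM in controls, a ratio of means of 2.86. Tubb3, the neuronal beta-tubulin, was at 317, 387 and 311 CPM in KO libraries, against 95.2, 170.3, 97.9 and 101 CPM in controls (1.19 ± 0.18, edgeR adjusted p = 0.00041). The KO libraries were all above the highest control, library 70. The same held for Neurod1, a transcription factor of new neurons, at 53.5, 69.05 and 62.4 CPM in KO libraries, against 13.1, 27.9, 18.5 and 17.1 CPM in controls (1.34 ± 0.21, edgeR adjusted p = 0.00058). Dpysl3 (707, 806 and 754 CPM, against 196, 397, 205 and 219 CPM) and Dcx, the microtubule protein of migrating neurons (515, 580.0 and 677 CPM, against 121, 291, 134 and 155 CPM), changed by 1.23 ± 0.20 and 1.42 ± 0.24. The other 9, among them the synaptic genes Snap25 and Syt1 and the markers of excitatory (Slc17a7) and inhibitory (Gad1) neurons, lay between 0.90 and 1.24 on the log2 scale. All 26 further neuronal genes outside the 36 were higher as well.

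Astrocyte and radial glial genes changed by the same order. Aldh1l1, a folate enzyme used as a pan-astrocyte marker, was at 90.8, 100.2 and 75.5 CPM in KO libraries, against 23.0, 27.7, 25.3 and 25.7 CPM in controls (1.45 ± 0.13, edgeR adjusted p = 2.8e-05). Fabp7 was at 1840.0, 1986 and 2101 CPM in KO libraries, against 536, 974, 488 and 480.1 CPM in controls (1.33 ± 0.22, edgeR adjusted p = 0.00073). The groups did not overlap for either gene. The glycolytic gene Aldoc (200, 192 and 135 CPM, against 63.6, 66.8, 44.3 and 54.7 CPM) and the gap junction gene Gja1 (176, 155 and 176 CPM, against 43.9, 78.5, 47.7 and 43.3 CPM) changed by 1.26 ± 0.17 and 1.32 ± 0.18. Slc1a3 changed least of the 9, by 0.79 ± 0.19. Of 13 further astrocyte genes 12 were higher and 1 was lower.

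Within the oligodendrocyte list the early lineage genes and the myelin genes parted. The lineage transcription factor gene Olig1 was at 175, 179.9 and 145 CPM in KO libraries, against 31.0, 56.5, 34.8 and 34.9 CPM in controls (1.74 ± 0.17, edgeR adjusted p = 4.0e-05). Olig2, the precursor receptor gene Pdgfra and Sox10 were also higher, by 1.40 ± 0.18, 1.22 ± 0.22 and 1.55 ± 0.33. Mbp was at 48.9, 52.9 and 49.4 CPM in KO libraries, against 33.1, 44.5, 34.2 and 32.0 CPM in controls, a change of 0.13 ± 0.14 that did not pass (edgeR adjusted p = 0.48). Cnp (-0.16 ± 0.13, and 0.20 with library totals) and Mog (0.08 ± 0.51) did not pass either. Pdgfra is also a fibroblast gene, and all 6 fibroblast genes examined were higher too.

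The vascular genes parted in a like way. Nid1 was at 70.1, 95.6 and 63.3 CPM in KO libraries, against 26.02, 24.3, 20.4 and 18.6 CPM in controls (1.41 ± 0.18, edgeR adjusted p = 0.00014). Flt1, a VEGF receptor of endothelium that monocytes and macrophages can also make, had the largest change of the 36, at 36.7, 55.1 and 73.6 CPM in KO libraries, against 12.8, 14.2, 5.62 and 8.77 CPM in controls (2.06 ± 0.31, edgeR adjusted p = 0.00043). The pericyte genes Rgs5 and Pdgfrb changed by 1.16 ± 0.20 and 1.42 ± 0.25, and Cldn5 by 1.31 ± 0.24. Pecam1 was at 19.9, 22.2 and 16.6 CPM in KO libraries, against 16.3, 19.3, 26.6 and 19.7 CPM in controls (-0.43 ± 0.21, edgeR adjusted p = 0.12), and the groups overlapped. Cdh5 just missed the threshold (0.62 ± 0.23, edgeR adjusted p = 0.051).

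The neuronal, astrocyte and vascular classes kept similar proportions to each other. Oligodendrocyte genes made up 4.81 to 6.50% of the summed CPM of the 36 genes in KO libraries (median 5.59%). In controls their share was 5.40 to 7.96% (median 7.42%). The astrocyte sum per neuronal sum was 0.643 to 0.743 in KO libraries and 0.641 to 0.781 in controls, and the vascular sum per neuronal sum was 0.0647 to 0.0697 in KO libraries and 0.0527 to 0.0852 in controls. Against the microglial genes the proportions differed: for each 100 CPM of the 18 microglial genes there were 44.6 to 113 CPM of neuronal genes in KO libraries, against 2.7 to 6.57 CPM in controls. Genes of blood cells rose in the same libraries. The erythroid list summed to 2965, 2266 and 3008 CPM in KO libraries, against 859, 1094, 600.3 and 737 CPM in controls (8 of 8 genes higher), and the neutrophil list to 7878, 8968 and 12087 CPM, against 861, 1207, 1703 and 1827 CPM (11 of 12 higher). All 8 monocyte genes were higher, and 7 of 9 border macrophage genes lower. The part of these cell types, and of the loss of microglial RNA, in the values of the 36 genes was not tested. Without the library labelled KO 68, 29 of the 31 genes stayed called (Gfap and S100b were lost); without KO 73 Gfap, S100b and Syt1 were lost, without control library 74 Gfap was, and without control library 70 all 31 stayed called, with Cdh5 added. In a fit of all 50 libraries 22 of the 31 stayed called (Gad1, Gfap, Neurod1, Pdgfra, S100b, Slc17a7, Slc1a3, Sox10 and Syt1 were lost), and Syt1 was also lost with no filter on low counts.

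**Figure D3:**
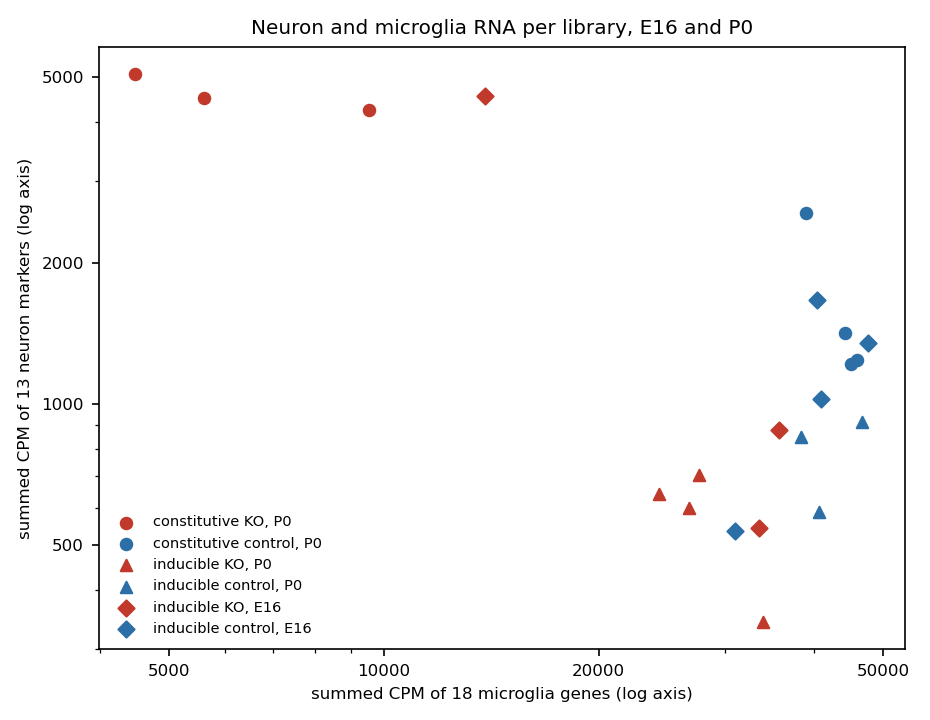
Summed CPM of the 13 neuronal genes against the summed CPM of 18 microglial genes in each library at E16 and P0, on log axes, by group. The 3 constitutive KO libraries at P0 and the library labelled inducible KO 1 at E16 combine 4248 to 5062 CPM of neuronal genes with 4488 to 13874 CPM of microglial genes; all other libraries lie at 24320 CPM of microglial genes or more.

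Rest, the gene of the RE1-binding repressor, was lower in the constitutive KO at P0, at 59.8, 56.5 and 86.5 CPM, against 98.4, 85.9, 75.3 and 83.7 CPM in controls (-0.70 ± 0.18, edgeR adjusted p = 0.0094), with 1 overlapping KO library. In the inducible KO at P0 it was higher, at 136, 142, 130.4 and 148 CPM, against 86.3, 98.8 and 67.3 CPM in controls (0.73 ± 0.16, edgeR adjusted p = 0.015). Because REST recruits deacetylase complexes through the RE1 element, promoter windows were searched for 2 parts of that element, CAGCACC and GGACAG, each on both strands. RefSeq windows (GRCm38.p6) from 250 bases before to 50 bases after the gene start were matched for 25 of the 36 genes, and not for Stmn2, Snap25, Dpysl3, Gap43, Aqp4, Olig1, Mbp, Sox10, Pecam1, Cdh5 and Pdgfrb. CAGCACC lay in 2 of 29 windows of these genes (Nsg2 and Tubb3), against 7.14% of all 32851 RefSeq windows, and GGACAG in 11 of 29, against 22.2%. The GC box GGGCGG lay in 14 of 29 windows, against 35.7% of all, and the TATA motif TATAAA in 6 of 29, against 13.6%, again on either strand. Shown are Tubb3, the neuronal gene with the smallest adjusted p and with both parts in its window (chr8:123411303-123411602, plus strand); Slc1a3, which stays in the older microglia and holds neither (chr15:8710758-8711057, minus strand); and Flt1, which was higher in both KO models at P0 (chr5:147725962-147726261, minus strand). Each reads 5′ to 3′ on the strand of its gene, and capitals mark a match to either part on either strand.
Tubb3: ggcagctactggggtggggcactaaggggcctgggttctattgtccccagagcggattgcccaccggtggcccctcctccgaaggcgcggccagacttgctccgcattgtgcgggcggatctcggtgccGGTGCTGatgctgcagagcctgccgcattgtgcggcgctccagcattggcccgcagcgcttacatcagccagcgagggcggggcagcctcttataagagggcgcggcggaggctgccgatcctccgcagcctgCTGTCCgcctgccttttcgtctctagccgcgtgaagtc
Slc1a3: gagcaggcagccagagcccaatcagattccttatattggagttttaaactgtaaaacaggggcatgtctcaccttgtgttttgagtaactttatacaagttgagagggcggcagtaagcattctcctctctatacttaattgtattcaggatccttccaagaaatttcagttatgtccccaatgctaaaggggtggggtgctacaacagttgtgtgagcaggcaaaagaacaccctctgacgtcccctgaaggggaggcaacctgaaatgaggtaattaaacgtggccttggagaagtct
Flt1: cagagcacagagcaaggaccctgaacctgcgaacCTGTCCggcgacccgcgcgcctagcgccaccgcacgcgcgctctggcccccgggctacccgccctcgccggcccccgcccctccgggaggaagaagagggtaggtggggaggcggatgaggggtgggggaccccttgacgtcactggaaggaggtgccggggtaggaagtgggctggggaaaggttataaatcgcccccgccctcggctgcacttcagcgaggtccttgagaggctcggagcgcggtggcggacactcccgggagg
A match gives the letters in the window and does not show binding. The windows shown are examples, and other genes go the other way. Dcx, Gad1, Neurod1, Fabp7 and Gja1, all lower at 2 weeks than at P0 in controls, also hold neither part. Cnp and Mog, which did not pass between those ages, hold GGACAG. A relation between these letters and the changes was not tested.

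In the inducible KO at P0 the picture was different. The neuronal genes summed to 706, 641, 600.1 and 343 CPM in KO libraries, against 586, 849 and 914 CPM in controls, and none of the 13 passed the test. Of the 36 genes 1 was higher and 3 were lower, where 6.81% of 17573 tested genes were higher and 3.56% lower, and the median log2 change was -0.48, against -0.01 for all genes. In 6 genes all KO libraries lay below all controls, and in 1 all lay above. The share of all genes that separated in this way was not counted, so these numbers cannot be set against it. The 18 microglial genes summed to 24320.0 to 33940.0 CPM in KO libraries, against 38363 to 46742 CPM in controls (10 of 18 lower), so these libraries kept more microglial RNA than those of the constitutive KO.

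Flt1 was the gene that was higher, at 51.9, 38.9, 35.3 and 72.7 CPM in KO libraries, against 7.04, 12.6 and 5.03 CPM in controls (2.61 ± 0.36, edgeR adjusted p = 0.0023). Every KO library exceeded every control, and the call held in all 12 alternatives tried. Pecam1 was lower, at 13.1, 13.3, 10.4 and 12.4 CPM in KO libraries, against 24.9, 26.8 and 40.2 CPM in controls (-1.30 ± 0.20, edgeR adjusted p = 0.003). Mbp was lower too, at 22.0, 15.2, 21.5 and 19.7 CPM in KO libraries, against 35.1, 38.0 and 33.5 CPM in controls (-0.85 ± 0.18, edgeR adjusted p = 0.015), a call lost without control library 55. Neither gene's groups overlapped. The astrocyte glutamate transporter gene Slc1a2 passed narrowly, at 11.1, 10.8, 9.88 and 10.8 CPM in KO libraries, against 12.9, 16.7 and 36.7 CPM in controls (-1.02 ± 0.30, edgeR adjusted p = 0.049). Without control library 56, which holds the 36.7 CPM, its change was -0.50 and did not pass, and it was lost in 6 of the 7 fits that leave out a library. DESeq2 called 6 of the 36 lower, with Cnp, Gfap and Rbfox3 added.

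**Figure D4:**
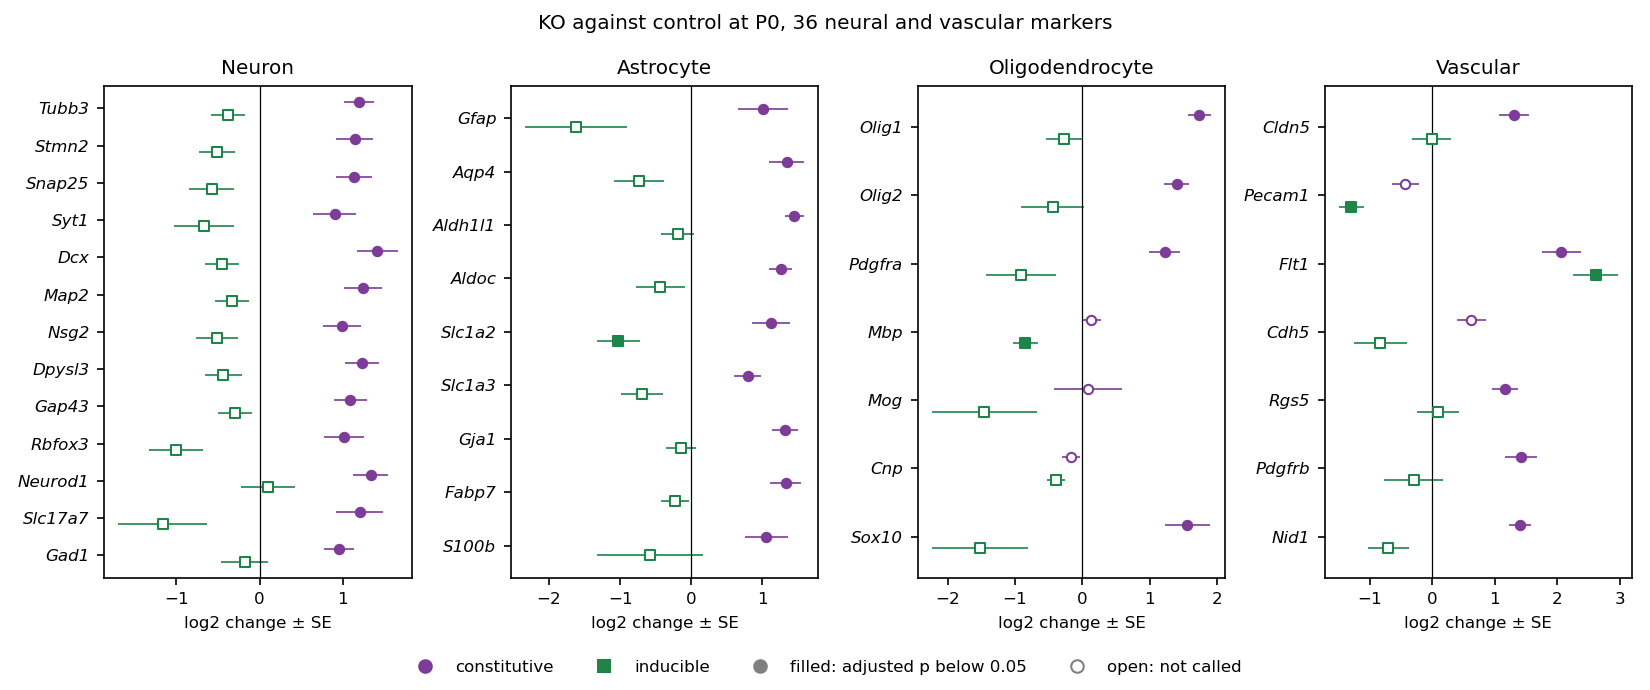
Log2 fold change (± standard error) of KO against control at P0 for each of the 36 genes, constitutive beside inducible, ordered by class. Constitutive values lie mostly between 0.62 and 2.06 and inducible values mostly below 0, whereas Flt1 is high in both.

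The difference between the KO effects at P0 was tested as an interaction. The constitutive effect exceeded the inducible one for 32 of the 36 genes and fell short of it for none, where 14% of 19236 genes went the first way and 16.9% the second, with a median difference of 1.64 (all genes -0.04, and 0.30 with library totals). Among the neuronal genes the differences ran from 1.18 ± 0.34 for Gad1 to 2.42 ± 0.61 for Slc17a7, and the lineage genes Olig1 and Sox10 differed by 2.04 ± 0.33 and 3.13 ± 0.81. Pecam1 and Cdh5, which did not pass within the constitutive KO, differed by 0.91 ± 0.29 and 1.497 ± 0.48. The 4 genes that did not pass were S100b, Mog, Cnp and Flt1, and for Flt1 the difference was -0.50 ± 0.50 (edgeR adjusted p = 0.47). Leaving out control library 55 or 56 of the inducible set left 26 of the 32 called, leaving out constitutive KO 73 left 27, and leaving out constitutive KO 68 left 31 (Rgs5 was lost). The fit of all 50 libraries called 19 of the 32, with Sox10, Pecam1 and Cdh5 among them and Gad1 and Slc17a7 among those lost. Without control library 56, Pecam1 (0.67), Cdh5 (1.34) and Sox10 (1.53) were among those lost, and without constitutive KO 73 Cdh5 was. The models differ in the allele, the tamoxifen and the time of recombination together, which cannot be told apart.

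At E16 no gene of the 36 passed in the inducible KO, as for all 17594 genes tested (0% called higher and 0% lower by edgeR), although 2306 genes had an unadjusted p under 0.05, DESeq2 called 345 genes higher and 336 lower, and a fit of all 50 libraries called 564 and 1012. Of the 36, DESeq2 called Pecam1 lower, and the fit of all libraries called Cnp, Mbp and Pecam1 lower. The 3 KO libraries were unlike each other. The neuronal sum was 4559 CPM in the library labelled KO 1 and 880.0 and 544 CPM in the other KO libraries, against 536, 1024, 1669 and 1348 CPM in controls. Fabp7 was at 1200.5 CPM in KO 1 and at 149.6 and 128 CPM in the other KO libraries, against 96.9, 186, 284 and 211 CPM in controls.

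That library also stood apart in other lists. Its erythroid genes summed to 13410.0 CPM, with 755 and 1029 CPM in the other KO libraries, against 1167 to 1556 CPM in controls, and its microglial genes to 13874 CPM, with 35770.0 and 33511 CPM in the other KO libraries, against 31058 to 47694 CPM. With it the median log2 change of the 36 genes was 0.62 (0.12 for all genes, and 0.24 with library totals). Without it the median was -0.64, 33 of the 36 changes were below 0, and 1 gene was called, Pdgfra, at 1.6 and 0.837 CPM in the remaining KO libraries, against 4.33, 6.03, 4.66 and 5.97 CPM in controls (-2.14, edgeR adjusted p = 0.037). Leaving out any other E16 library kept the median between 0.47 and 0.94. Pecam1 had the smallest p of the vascular genes, at 19.5, 25.0 and 18.6 CPM in KO libraries, against 28.5, 27.7, 39.6 and 48.5 CPM in controls (-0.88 ± 0.25, edgeR adjusted p = 0.22), without overlap.

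At 2 weeks the neuronal RNA was near the detection limit in both models. Only 2 KO libraries entered this comparison. Filters on low counts left 24 of the 36 genes, of which 3 were higher and 5 lower, where 24.4% of 15017 genes were higher and 17.8% lower. The count of higher genes is thus below the share of all genes and that of lower genes close to it. These counts therefore mark no trait of the 36 genes as a set. Their median log2 change was below 0.01 in size, as was that of all genes. The neuronal sum was 5.37 and 4.56 CPM in KO libraries, against 4.68, 5.07, 6.65 and 6.66 CPM in controls. None of the 7 neuronal genes tested passed, and the other neuronal genes were too low to test.

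Slc1a3 was at 16.9 and 4.47 CPM in the constitutive KO, against 211, 206, 245 and 214 CPM in controls (-4.42 ± 0.51, edgeR adjusted p = 0.00082). Pecam1 was at 8.52 and 7.03 CPM, against 51.6, 56.2, 51.5 and 50.9 CPM (-2.77 ± 0.16, edgeR adjusted p = 3.2e-06). Cdh5 was at 0.0572 and 0.133 CPM, against 2.54, 2.94, 2.13 and 2.27 CPM (-4.54 ± 0.62, edgeR adjusted p = 0.00036), which is 4 counts in all in the KO libraries. Each gene thus lay far below its controls in both KO libraries. Aqp4 was also low, with 4 counts in the KO libraries and 52 in the controls (-2.90 ± 0.77, edgeR adjusted p = 0.013), and Mog had 1 count, against 58. The Slc1a3 change was -5.52 without KO 80 and -3.79 without KO 89, and the Cdh5 change was -5.35 without KO 89. The Aqp4 call was lost without KO 80 and in the fit of all 50 libraries, and its change was -3.71 without KO 89, whereas the Mog call was lost without KO 89 and its change was -6.96 without KO 80.

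Flt1, Mbp and Aldoc were higher. Flt1 was at 11.8 and 8.36 CPM in the constitutive KO, against 0.712, 0.863, 0.502 and 2.19 CPM in controls (3.26 ± 0.48, edgeR adjusted p = 0.00058). Mbp was at 49.3 and 103 CPM, against 24.1, 28.5, 28.2 and 33.9 CPM (1.45 ± 0.30, edgeR adjusted p = 0.0057), and its change was 0.68 without KO 89. Aldoc was at 4.4 and 7.65 CPM, against 0.153, 0.863, 1.51 and 2.11 CPM (2.44 ± 0.70, edgeR adjusted p = 0.021), a call lost without KO 89 or control library 78.

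Blood cell genes were high in the same 2 libraries. The neutrophil list summed to 18907 and 53646 CPM in the KO libraries, against 468 to 1206 CPM in controls (11 of 12 higher, 1 lower), the monocyte list to 1225 and 2958 CPM, against 15.6 to 40.9 CPM (8 of 8 higher), and the border macrophage list to 3463 and 3058 CPM, against 585 to 806 CPM (8 of 9 higher). The microglial list summed to 44023 and 29010.0 CPM, against 100160.0 to 110520.0 CPM (17 of 18 lower). The neural progenitor list summed to 387 and 696 CPM, against 85.5 to 119 CPM (2 of 5 tested genes higher, Vim and Hopx); without Vim, an intermediate filament gene that leukocytes also express, it was at 109.7 and 134 CPM, against 78.6 to 115 CPM. The ependymal and choroid plexus list summed to 43.8 and 71.2 CPM, against 13.8 to 28.1 CPM (1 of 2 tested genes higher). The part of these cells in the Slc1a3, Pecam1, Flt1 and Mbp values was not tested.

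At 6 weeks the same direction was seen for 3 genes in the constitutive KO. Flt1 was at 16.4, 7.76 and 6.05 CPM in KO libraries, against 0.25, 1.77, 0.428 and 0.759 CPM in controls (3.61 ± 0.57, edgeR adjusted p = 0.0023; 4.28 without the control library at 1.77 CPM). Slc1a3 was at 208, 98.8 and 160.3 CPM, against 378, 346, 530.0 and 332 CPM (-1.40 ± 0.26, edgeR adjusted p = 0.0079). Pecam1 was at 4.44, 3.63 and 8.46 CPM, against 29.1, 51.5, 31.8 and 47.7 CPM (-2.90 ± 0.33, edgeR adjusted p = 0.00031). Without the library labelled KO 380 the changes were 3.77, -1.16 and -2.66, all called, and the Slc1a3 call was lost with no filter on low counts. None of the 3 genes' groups overlapped, and no other gene of the 18 tested passed (6.76% of all 14428 genes were higher and 5.24% lower). The microglial list summed to 71738 to 95943 CPM, against 109350.0 to 117520.0 CPM in controls, while the neutrophil list summed to 2785 to 5678 CPM, against 923 to 1347 CPM (8 of 10 tested genes higher), and the border macrophage list to 1813 to 2543 CPM, against 522 to 912 CPM (5 of 9 higher). The monocyte list summed to 43.6 to 552 CPM, against 20.6 to 89.1 CPM (2 of 7 tested higher), and the ependymal and choroid plexus list to 72.3 to 551 CPM, against 20.3 to 85.6 CPM (none of 4 tested passed). The part of these cells in the Flt1, Slc1a3 and Pecam1 values was not tested.

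**Figure D5:**
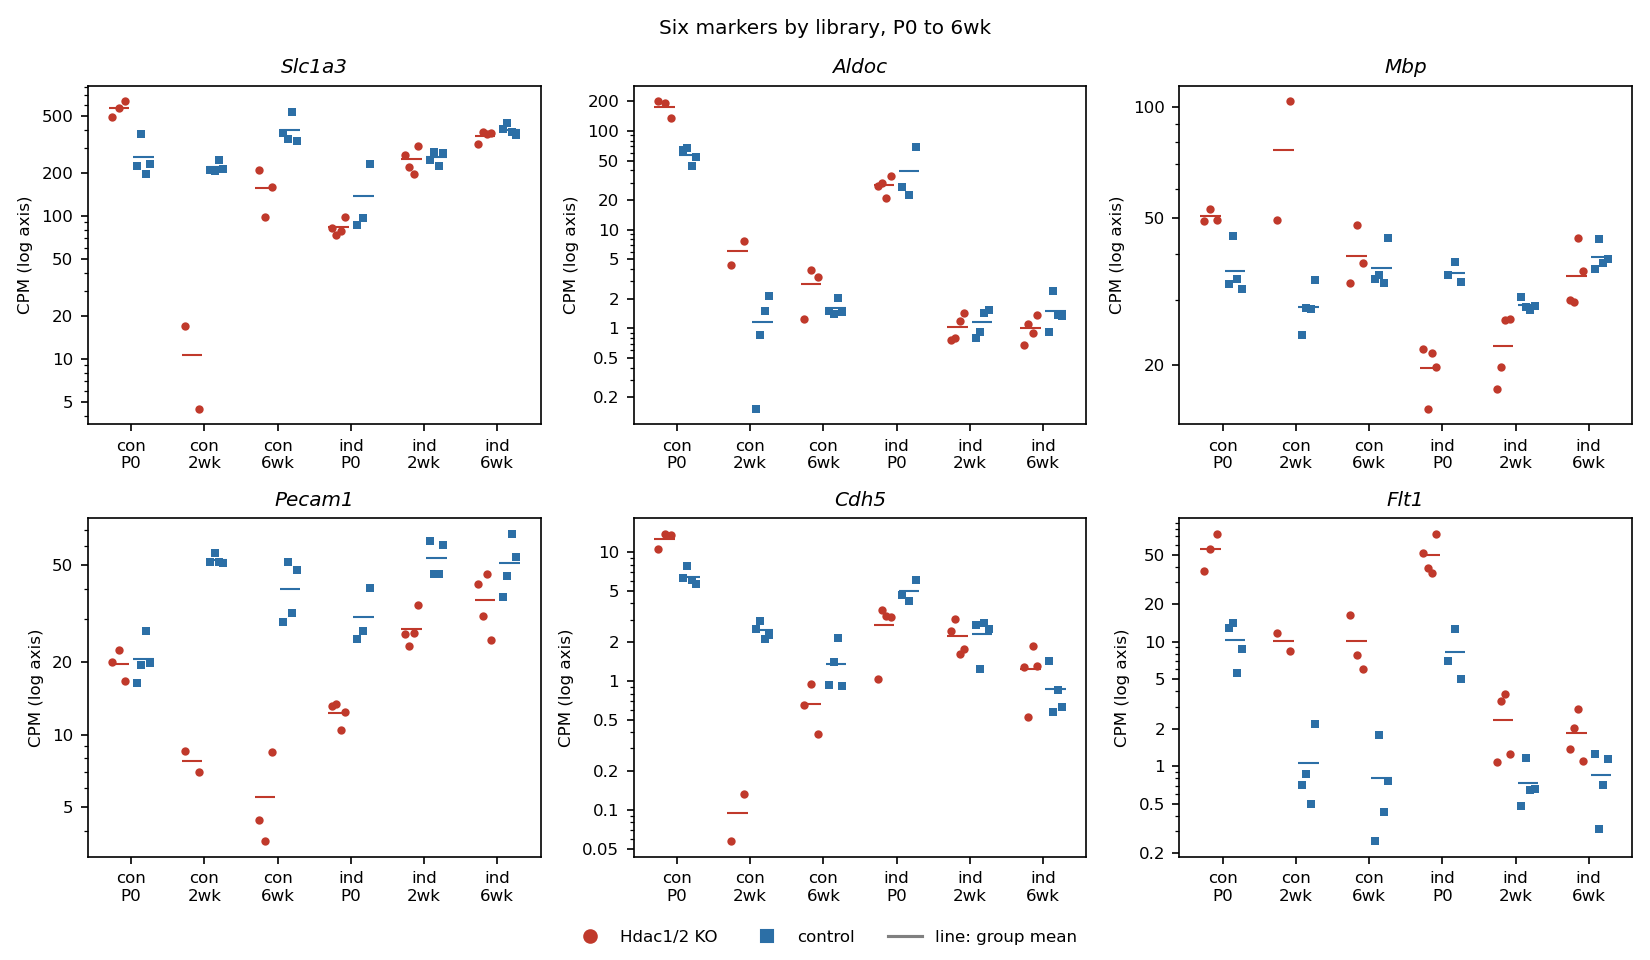
CPM of Slc1a3, Aldoc, Mbp, Pecam1, Cdh5 and Flt1 in every library from P0 to 6 weeks (points, log axis), KO left of control, with group means as horizontal lines. Slc1a3 drops to 16.9 and 4.47 CPM and Pecam1 to 8.52 and 7.03 CPM in the 2-week constitutive KO, while Flt1 lies above its controls in the constitutive KO at all 3 ages.

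In the inducible KO the older ages showed less. At 2 weeks 19 of the 36 genes were tested, and only Pecam1 passed, at 26.1, 23.1, 26.2 and 34.1 CPM in KO libraries, against 62.6, 45.8, 45.9 and 60.4 CPM in controls (-1.04 ± 0.15, edgeR adjusted p = 0.0016; 1.11% of all 13921 genes were higher and 1.13% lower). Flt1 was at 1.08, 3.32, 3.78 and 1.27 CPM in KO libraries, against 0.479, 1.17, 0.641 and 0.66 CPM in controls (1.60 ± 0.46, edgeR adjusted p = 0.085; called by DESeq2 and with no filter), with overlap in 1 library. Slc1a3 was at 266, 221, 197 and 310.1 CPM, against 246, 280.4, 224 and 278 CPM (-0.11 ± 0.14, edgeR adjusted p = 0.77). At 6 weeks none of 13 tested genes passed, where 0.0492% of all 14217 genes were higher and 0.0141% lower. There 626 genes had an unadjusted p under 0.05 and DESeq2 called 33 higher and 15 lower.

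The models differed for individual marker genes at the older ages. How many marker genes entered the test at 2 weeks is not given here. The calls at that age therefore cannot be set against the shares of all genes. At 2 weeks the constitutive minus inducible difference was negative for Slc1a3 (-4.32 ± 0.46, edgeR adjusted p = 2.0e-05), Cdh5 (-4.41 ± 0.69), Aqp4 (-3.97 ± 1.12) and Pecam1 (-1.74 ± 0.23), and positive for Mbp (1.88 ± 0.33) and Aldoc (2.68 ± 0.78), where 16.6% of 15965 genes were higher and 14.7% lower. Without constitutive KO 80 the Slc1a3 difference was -5.43 and the Aqp4 call was lost. Without constitutive KO 89 the Slc1a3, Cdh5, Aqp4 and Mbp differences were -3.69, -5.23, -4.78 and 1.12, and the Aldoc call was lost. Without inducible control 4 the Aqp4 difference was -4.59. For Flt1 it was 1.64 ± 0.72 (edgeR adjusted p = 0.092). At 6 weeks it was negative for Slc1a3 (-1.21 ± 0.27), Pecam1 (-2.36 ± 0.41) and Stmn2, a neuronal growth gene (-4.80 ± 1.21), where 2.54% of 15492 genes were higher and 2.41% lower. The Stmn2 value rests on levels of at most 1.27 CPM in all 15 libraries of that age, and its call was lost when constitutive KO 380, inducible KO 9 or inducible control 5, 10 or 11 was left out. It was -6.46 without inducible control 1 and -4.03 without inducible KO 9. In the fit of all 50 libraries the Stmn2 and Slc1a3 calls were lost and that of Pecam1 held.

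Within the constitutive model the KO effect at 2 weeks was set against that at P0. It was lower at 2 weeks for 11 genes and higher for 1, where 9.07% of 19997 genes were lower and 21.7% higher. The number of marker genes tested is not given here, and Gad1 and Nid1 entered only through P0. The counts therefore cannot be weighed against these shares. The 11 were the neuronal genes Snap25, Gap43, Rbfox3 and Gad1, the astrocyte genes Aqp4 and Slc1a3 (-5.27 ± 0.48), Olig1 and Mog, and the vascular genes Pecam1 (-2.40 ± 0.26), Cdh5 (-5.23 ± 0.55) and Nid1. Gad1 (4 counts in the 2-week KO libraries, 28 in their controls) and Nid1 (1 and 18) failed the filter at 2 weeks alone. They entered here with P0 included, where their levels are high. Counts at 2 weeks were also low for Mog (1 and 58), Aqp4 (4 and 52), Cdh5 (4 and 163), Olig1 (7 and 23), Snap25 (11 and 48), Gap43 (13 and 31) and Rbfox3 (26 and 61). Mbp was the gene with a higher effect at 2 weeks (1.25 ± 0.33, edgeR adjusted p = 0.0084), and its difference was 0.50 and not called without KO 89. The fit of all 50 libraries called 6 of the 11 lower (Gad1, Gap43, Olig1, Rbfox3 and Snap25 were lost). Rbfox3 was also lost without P0 KO 68 or 73, P0 control 69 or 71, or 2-week control 77. Without 2-week control 77 Gap43 and Nid1 were lost too, and the Nid1 difference was -2.71. Olig1 was lost without 2-week control 78 and Snap25 without 2-week control 81. Leaving out 2-week KO 80 or 89 left 6 of the 11 called each time: Gap43, Rbfox3 and Nid1 were lost both times, Snap25 and Olig1 without KO 80, and Gad1 and Mog without KO 89. The Slc1a3 difference was then -6.38 without KO 80 and -4.64 without KO 89, and that of Cdh5 was -6.05 without KO 89. Flt1, higher in the constitutive KO at each age, differed by 1.16 ± 0.58 (edgeR adjusted p = 0.15). In the inducible model only Nid1 passed (5.75 ± 1.28, edgeR adjusted p = 0.020), where 2.67% of 17914 genes were higher and 1.71% lower. It rests on 0.054 to 0.36 CPM in the 2-week KO libraries with no counts in the controls. Its call was lost without 2-week KO library 10. Nid1 failed the filter at 2 weeks alone here too (13 counts in KO libraries, 0 in controls). It entered with P0 included, where its counts are high (653 and 632), so this call carries little weight.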

How the data were processed

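RNA was extracted from microglia sorted by FACS; per the labels' protocols, 1 ng of RNA was amplified with a SMARTer kit through 11 cycles of LD PCR, and 150 pg of cDNA entered Nextera XT libraries. The submitters' processing notes name CASAVA 1.8.2, STAR 2.5.2b, Subread featureCounts 1.5.1, limma 3.28.21 and the build GRCm38; their settings are not given in the sources used here. The deposited gene counts of the authors were used for all tests. The authors' deposited CPM values equal count over library total (relative tolerance 0.0001, 0 values off) and are the levels printed. They are counts per library and not per cell, so amplification and depth set the floor for low genes. The deposited log2 table was not used. No symbol was found for 468 gene IDs (0.058% of counts), which stayed in the tests under their IDs.

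Comparisons used R 4.3.3 with edgeR 4.0.16 (filterByExpr with a minimum count of 10, TMM, quasi-likelihood test, Benjamini-Hochberg threshold 0.05) on the compared groups only, after a trial on simulated data. DESeq2 1.42.0, other scaling, no filter, a fit of all 50 libraries and leaving out each library were alternatives. Where that left 1 KO library at 2 weeks, its spread was taken from the other libraries of the fit. A gene with no counts in a group was bounded at 3 counts over the group, which covers counting error only. No pair of replicates was 1 library deposited again (chi-square per gene 9.98 to 214). Animal numbers separate the replicates, and p-values measure the spread between these samples. CPM per kb divides by the length in the deposited table.

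The 36 genes and all lists were chosen with earlier results of these data known. Any of the 36 may be named; values by library were given for the gene of each class with the highest mean CPM over all 50 libraries (Dpysl3, Fabp7, Cnp and Pecam1) and for up to 4 called genes of a class by smallest adjusted p, or else for the gene with the smallest p. Slc1a3, Flt1, Mbp and Cdh5 were followed at all ages after their values were seen.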

Additional observations from a re-analysis of the deposited data

Results flagged for a closer look

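In 6 of 90 groups examined, 1 library lay apart from the others of its group. Chance gives about 1 in 20, which is close to this. The 6 are also not independent. Library 70 is counted for both neuronal and astrocyte genes, and the vascular sum of library 78 is mostly its Pecam1 value, counted again. Control library 70 of the constitutive set at P0 had 2560.1 CPM of neuronal genes, with 1218 to 1419 CPM in the other 3, and 1648 CPM of astrocyte genes, with 857 to 951 CPM in the others. In the constitutive controls at 2 weeks, library 78 had 60.8 CPM of vascular genes, with 55.6 to 56.1 CPM in the others, and 56.2 CPM of Pecam1, with 50.9 to 51.6 CPM. In the constitutive controls at 6 weeks, library 400 had 43.98 CPM of Mbp, with 33.2 to 34.9 CPM in the others. In the inducible KO at P0, library 48 had 1.04 CPM of Cdh5, with 3.14 to 3.54 CPM in the other KO libraries.

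KO effects differed between the models and between ages by edgeR's test of the difference itself. The constitutive effect exceeded the inducible one for 32 genes at P0. At 2 weeks it was higher for 2 genes and lower for 4, and at 6 weeks lower for 3. Within the constitutive model the effect at 2 weeks was higher than at P0 for 1 gene and lower for 11 (21.7% and 9.07% of all genes). Within the inducible model it was higher for 1, Nid1 (2.67% of all genes). Nid1 in both models, and Gad1 in the constitutive one, passed the filter only with P0 included. These counts are therefore not weighed against the shares.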

How the results depend on the processing

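Over all results and alternatives, 6379 values kept their side of the threshold, and 136 lost and 72 gained a call. In addition 225 counts or levels moved and 1 value reversed. Called genes kept their call in 2292 of 2428 cases. A change of sign in a gene not called was not counted as a reversal. At E16 without KO 1, 33 of the 36 changes were below 0, with a median of -0.64, against 0.62 as reported. The cause of the changes was not tested. The value counted as reversed was the Pdgfra log2 change at E16, -2.14 without KO 1 and 0.54 as reported (-2.14 to 0.94 over the libraries left out). Counts of called genes among the 36 that moved by over 1.5 times are given next, with the reported count in parentheses; that of the constitutive KO at P0 ran from 22 (fit of all 50 libraries) to 33 (library totals), against 31. With DESeq2, 1 was lower at E16 (0 as reported), 6 lower in the inducible KO at P0 (3), 1 higher in the inducible KO at 2 weeks (0), 2 lower in the constitutive controls at 6 against 2 weeks (1), 1 higher and 1 lower in the inducible controls at P0 against E16 (0 and 0), 2 lower in the inducible controls at 6 against 2 weeks (1), 1 higher between the models at 6 weeks (0) and 2 higher in the inducible effect at 2 weeks against P0 (1). In the fit of all 50 libraries, 3 were lower at E16, 0 higher and 2 lower in the constitutive controls at 6 against 2 weeks (1 and 1), 0 higher and 2 lower in the inducible ones (2 and 1), 19 higher between the models at P0 (32), 1 higher and 1 lower between them at 6 weeks (0 and 3), 6 lower in the constitutive effect at 2 weeks against P0 (11) and 0 higher in the inducible one (1). Without a filter, 1 was higher and 2 lower in the inducible KO at 2 weeks (0 and 1), 4 lower in the constitutive controls at 6 against 2 weeks, 1 higher in the inducible controls at P0 against E16, 1 higher at 2 weeks against P0 (2), and 1 higher and 5 lower at 6 against 2 weeks. With library totals, 0 were lower in the constitutive controls at 6 against 2 weeks and 1 higher in the inducible controls at 2 weeks against P0. Leaving out 1 library each gave 0 to 1 lower at E16, 1 to 4 lower in the inducible KO at P0, 0 to 1 higher and 1 to 2 lower in it at 2 weeks; in the constitutive controls 1 to 2 higher at 2 weeks against P0 and 0 to 2 lower at 6 weeks; in the inducible controls 0 to 1 higher and 0 to 2 lower at P0 against E16, 1 to 2 higher at 2 weeks, and 1 to 2 higher and 0 to 2 lower at 6 weeks; between the models 1 to 3 higher at 2 weeks and 0 to 1 higher at 6 weeks; and, for 2 weeks against P0, 0 to 2 higher and 7 to 16 lower in the constitutive and 0 to 2 higher in the inducible effect. No paired analysis was possible because the compared groups share fewer than 2 animal numbers, which name different animals. Depth limits the 2- and 6-week values, where most neuronal genes had few or no counts.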
